A study of Mus musculus with 5 samples.

Results

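The matrix proteases and their inhibitors were taken as every gene whose symbol is Mmp, Adamts or Timp followed by its family number. This rule found 45 of the 32286 features of the deposited matrices, namely 22 matrix metalloproteinases (Mmp), 19 Adamts proteases and 4 tissue inhibitors of metalloproteinases (Timp). They were measured by single cell RNA sequencing (scRNA-seq) in 5 synovial sarcoma (SyS) tumors of hSS2 mice. The mice were of a mixed CB57Bl/6-svJ strain and 2 to 6 months old, and no age is tied to a single tumor. All 5 tumors arose in the limb from human SS18::SSX2 expressed at the Rosa26 locus, which was switched on by TATCre protein injected at 8 days of life, and all were taken at morbidity, so no normal tissue stands beside them. The labels give the histology as biphasic (BP, 2 tumors), monophasic (MP, 1 tumor), a mix of both (MP+BP, 1 tumor) and poorly differentiated areas beside monophasic ones (PD+MP, 1 tumor). TATCre acts on any cell it enters, and whether both BP tumors come from 1 animal was not stated. Values over tumors follow the order BP replicate 1, BP replicate 2, MP, MP+BP and PD+MP wherever the tumors are not named.

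Matrix metalloproteinases are zinc enzymes that cleave collagens, laminins and other proteins of the extracellular matrix. Most are secreted as inactive precursors, while Mmp14, Mmp15, Mmp16, Mmp17, Mmp24 and Mmp25 are held at the cell membrane. Adamts proteases are secreted enzymes with thrombospondin repeats; several cut the proteoglycans aggrecan and versican, others remove the propeptides of fibrillar procollagens, and Adamts13 cuts von Willebrand factor. Timps bind the active site of these enzymes, and Timp3 is the member that inhibits Adamts proteases as well and is held in the matrix. In tumors, such genes are known to be carried by stromal and immune cells as well as by malignant cells.

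Of the 22 Mmp genes, 9 lie side by side on chromosome 9 between positions 7272514 and 7699585 of GRCm38 (427 kb), in the order Mmp13, Mmp12, Mmp1b, Mmp3, Mmp10, Mmp8, Mmp27, Mmp20 and Mmp7. The classical AP-1 site, bound by Fos and Jun proteins, is a known element of several promoters of this family, so the 250 bases before each RefSeq start site (GRCm38.p6) were searched for TGAGTCA and its reverse complement TGACTCA, which cover both strands. A window was found for 31 of the 45 genes. At least 1 window held the site in 6 of 17 Mmp genes, 0 of 10 Adamts genes and 0 of 4 Timp genes, against 5.16% of 27025 genes with a window. All 6 are genes of the chromosome 9 row, where 6 of 9 genes (66.7%) held it in at least 1 window. These neighbors are paralogs and are not independent of one another. The stretch around the site is shown for Mmp12, Mmp13 and Mmp3, which carried the levels described below in macrophage-like and fibroblast-like cells, and for Mmp10, which had 16 unique molecular identifiers (UMIs) in all kept cells, with the site in capitals and the plus strand written 5′ to 3′. It lies at chr9:7347295-7347371 for Mmp12 (1 of its 2 windows), chr9:7272444-7272513 for Mmp13, chr9:7445741-7445817 for Mmp3 and chr9:7502244-7502320 for Mmp10.
Mmp12: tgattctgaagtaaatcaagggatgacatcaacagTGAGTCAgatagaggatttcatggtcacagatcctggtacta
Mmp13: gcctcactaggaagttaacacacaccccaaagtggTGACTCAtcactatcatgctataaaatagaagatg
Mmp3: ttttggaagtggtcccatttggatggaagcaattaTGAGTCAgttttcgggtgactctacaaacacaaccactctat
Mmp10: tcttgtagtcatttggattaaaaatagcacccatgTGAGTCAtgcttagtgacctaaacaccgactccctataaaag

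The first base of the site stood 44 bases before the start in Mmp12, 35 in Mmp13, 46 in Mmp3 and 63 in Mmp10. The other 2 genes with the site were Mmp1b and Mmp7. The same letters thus preceded genes with very different UMI totals, from 1 for Mmp7 and 4 for Mmp1b to 883 for Mmp13 and 4104 for Mmp12. A match of letters is a description of the window and not evidence of binding.

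Of 51670 called cells, 39559 were kept, with 89996321 to 118649103 UMIs per tumor before filtering. Clusters of kept cells were named from marker genes, and no Mmp, Adamts or Timp gene took part in the clustering. The classes held 24575 SyS-like, 2651 macrophage-like, 2431 endothelial-like, 1263 pericyte-like, 331 T and NK-like, 263 dendritic-like, 232 mast-like, 170 neutrophil-like and 145 fibroblast-like cells. A further 7498 cells in 5 clusters stayed unnamed because genes of another class led them or they were shallow; 6141 of these carried mostly SyS markers and made up 24.9%, 28.0%, 11.3%, 12.6% and 0.0888% of the kept cells of the 5 tumors. PD+MP stood apart from the other tumors: its kept cells held 0.343 CPM (UMIs of a gene per 1000000 UMIs) of Xist and 131 CPM of Uty, against 1570 to 3760 CPM of Xist and at most 0.0335 CPM of Uty elsewhere, it supplied 121 of the 145 fibroblast-like cells, and only 39 pericyte-like and 81 endothelial-like cells. Any pair of tumors shared 15 to 33 cell barcodes. The summed SyS markers stood at 3540 to 5510 CPM in SyS-like cells, at 154 to 473 CPM in endothelial-like, 190 to 638 CPM in pericyte-like, 122 to 212 CPM in macrophage-like and up to 3560 CPM in neutrophil-like cells; the clusters were named from these markers, so the sums are no independent check of the name.

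Levels are in CPM, the UMIs of a gene per 1000000 UMIs of the cells of a class in a tumor, for classes with at least 20 cells there. A UMI of this 3′ chemistry stands for 1 captured molecule, so levels were not divided by gene length. Of the 45 genes, 30 reached 20 CPM in at least 1 class and tumor, and 15 did not. Among the 4 classes present in all tumors with at least 20 cells and large sums (SyS-like, pericyte-like, endothelial-like and macrophage-like), 21 genes were highest in the same class in all 5 tumors: 9 in pericyte-like, 6 in macrophage-like, 3 in endothelial-like and 3 in SyS-like cells. The share of all genes that do so was not computed, so these counts only describe the 45 genes. Among the 3 SyS-like ones, Adamts19 had 49 UMIs in SyS-like cells and none in the other 3 classes, whose sums are far smaller.

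**Figure D1:**
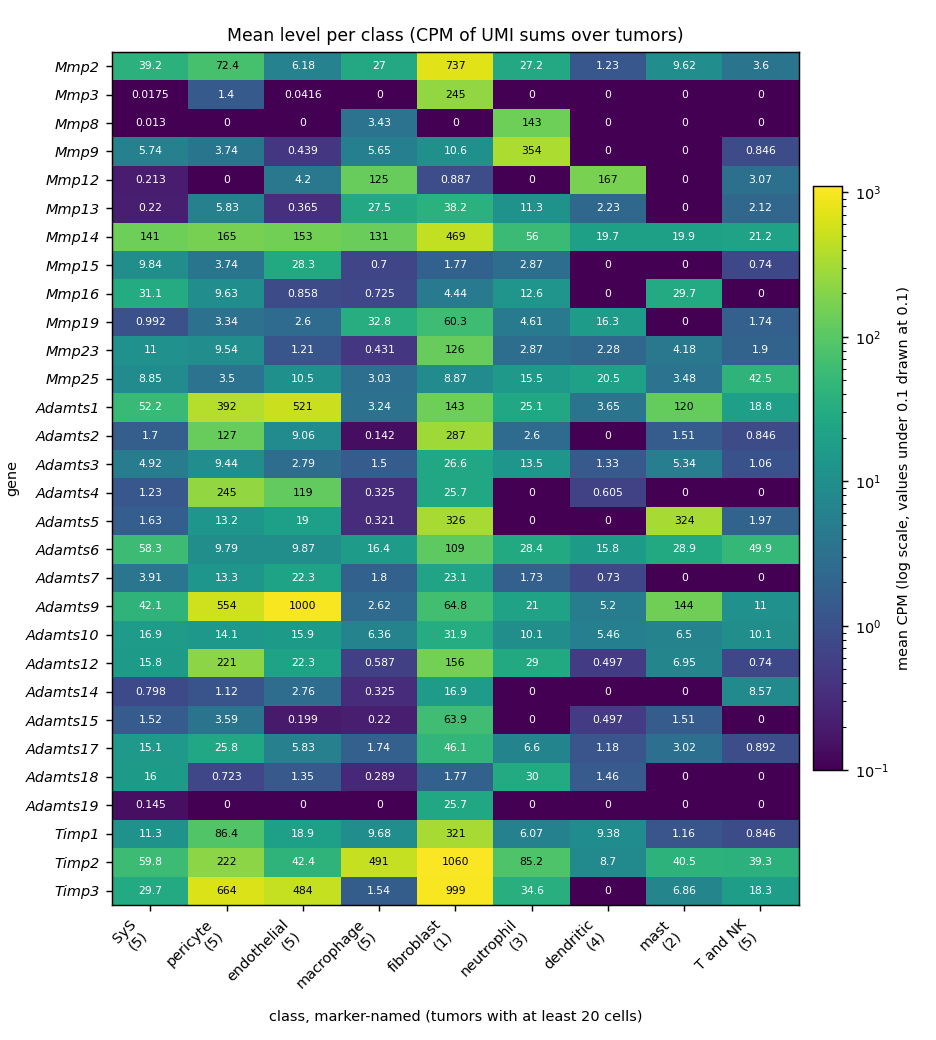
Mean CPM over tumors (color, log scale, printed in each cell) of the 30 genes that reached 20 CPM, by marker-named class, with the number of tumors behind each class in parentheses. Adamts1, Adamts4, Adamts9 and Timp3 were high in pericyte-like and endothelial-like cells, Mmp12 in macrophage-like and dendritic-like cells, Mmp8 and Mmp9 in neutrophil-like cells, and Mmp2, Mmp3 and Timp1 in the fibroblast-like cells of PD+MP.

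The 3 families differed in the class that carried them. Summed over the 22 Mmp genes, the level was 258 ± 83.1 CPM (SD, n = 5) in SyS-like, 302 ± 75.7 in pericyte-like, 221 ± 56.2 in endothelial-like and 361 ± 212 in macrophage-like cells, and these ranges overlapped. The Adamts sum separated the classes: 1640 ± 364 CPM in pericyte-like and 1760 ± 246 in endothelial-like cells, against 236 ± 41.7 in SyS-like and 36.9 ± 7.38 in macrophage-like cells. The Timp sum was 974 ± 193 CPM in pericyte-like, 547 ± 183 in endothelial-like, 502 ± 58.0 in macrophage-like and 101 ± 9.21 in SyS-like cells. Timps made up 20.8% to 32.7% of the joint Mmp and Timp UMIs in SyS-like cells and 61.8% to 83.1% in pericyte-like cells. Because SyS-like cells gave 78.8% of all kept UMIs, they supplied most molecules of several genes, whether or not another class held more of them per UMI: 82.3% of the Mmp14 UMIs, 78.2% of those of Mmp2, 73.6% of those of Timp1 and 55.6% of those of Adamts1.

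Of the 4 classes, Timp3, the matrix-bound inhibitor, was highest in pericyte-like and endothelial-like cells. Its level was 822, 690, 774, 738 and 296 CPM in pericyte-like cells and 401, 669, 412, 674 and 264 CPM in endothelial-like cells. SyS-like cells held 37.5, 38.4, 20.6, 20.2 and 32.0 CPM, and macrophage-like cells 0.712 to 2.32 CPM. No tumor overlapped between SyS-like and either vascular class, and the low pericyte-like value of PD+MP came from 39 cells. Fibroblast-like cells of PD+MP held more Timp3 than these classes, at 999 CPM. Timp2, which inhibits Mmp14 and also takes part in the activation of pro-Mmp2, was highest of the 4 classes in macrophage-like cells, with 468, 551, 457, 411 and 566 CPM, and reached 185 to 260 CPM in pericyte-like cells. In SyS-like cells Timp2 was the leading Timp of every tumor, at 57.2, 59.6, 62.6, 81.0 and 38.7 CPM. Timp2 shares its strand and part of its span on chromosome 11 with Cep295nl, so reads of that stretch could be assigned to either gene.

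Timp1, a secreted inhibitor encoded on chromosome X (20870166 to 20874735), stood at 136, 51.2, 50.4, 62.2 and 132 CPM in pericyte-like cells and at 14.1 to 30.9 CPM in endothelial-like cells. The SyS-like values were 8.18, 5.10, 1.55 and 4.95 CPM in the first 4 tumors and 36.6 CPM in PD+MP, above all of the others. Timp4, known from heart and fat, had 161 UMIs in all kept cells and stayed at or below 5.15 CPM in every class and tumor with at least 20 cells.

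Adamts1, Adamts4 and Adamts9, which cleave versican, were genes of endothelial-like and pericyte-like cells. Adamts9 was 841, 1090, 997, 1150 and 946 CPM in endothelial-like cells and 327, 673, 724, 676 and 370 CPM in pericyte-like cells. It ranged from 34.7 to 66.1 CPM in SyS-like and from 1.34 to 3.25 CPM in macrophage-like cells, so that the 4 classes did not overlap. Adamts1 was 487, 578, 507, 636 and 396 CPM in endothelial-like and 258, 303, 538, 627 and 234 CPM in pericyte-like cells; these classes overlapped, and both stood above the 37.5 to 66.2 CPM of SyS-like cells. Adamts4 was higher in pericyte-like cells, at 93.9, 415, 248, 275 and 195 CPM, than in endothelial-like cells, at 85.6, 190, 105, 136 and 80.7 CPM, in each tumor. In SyS-like cells Adamts4 was at 0.608 to 2.63 CPM. Other members divided the vascular classes. Adamts12 was at 169 to 282 CPM in pericyte-like and 18.9 to 25.8 CPM in endothelial-like cells, and Adamts2, a procollagen N-proteinase, at 62.6 to 242 CPM and 3.54 to 17.2 CPM. The membrane protease Mmp15 went the other way, with 25.3 to 32.7 CPM in endothelial-like and 0.776 to 5.84 CPM in pericyte-like cells, and Mmp28 reached 5.97 to 12 CPM in endothelial-like cells. Adamts7, which is known to cleave cartilage oligomeric matrix protein, was at 15.2, 9.48, 35.1, 27.7 and 24 CPM in endothelial-like and 6.80 to 23.4 CPM in pericyte-like cells, and these ranges overlapped. Pericyte markers, 10 of 10 detected, summed to 621 to 1430 CPM in endothelial-like cells, against 16100 to 22900 CPM in pericyte-like cells. Their part in the endothelial-like levels of genes higher in pericyte-like cells, such as Adamts2 and Adamts12, was not tested. Fibroblast markers summed to 2310 to 3640 CPM in pericyte-like cells, with 8 of 8 markers detected, against 64.4 to 257 CPM in endothelial-like cells and 33500 CPM in fibroblast-like cells. Nearly all of the pericyte-like sum was Col3a1, at 2300, 2330, 2460, 2330 and 3580 CPM, while Dpt, Clec3b, Pi16, Lum and Mfap5 had no UMI in either BP tumor and at most 41.8 CPM (Mfap5) in the other tumors, and Dcn lay between 1.42 and 139 CPM; their part in the Adamts2 level was not tested.

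Macrophage-like cells carried a different Mmp set. Mmp12, the macrophage elastase, was 91.5, 10.8, 37.8 and 15 CPM in the first 4 tumors and 468 CPM in PD+MP, where it made up 63.6% of the Mmp UMIs of the class. Mmp13, a collagenase, varied less, at 27.6, 21.0, 27.1, 21.9 and 40.1 CPM. Mmp19 was at 28.0, 19.2, 11.8, 83.8 and 21.3 CPM, with MP+BP above the other tumors. Mmp14 was present in these cells at 108 to 149 CPM, a range that the SyS-like values of 84.9 to 219 CPM covered. Mmp12 was also found in dendritic-like cells, at 181, 382, 79.5 and 25 CPM in BP replicate 1, MP, MP+BP and PD+MP. Within macrophage-like cells it was concentrated in a cluster led by Spp1, Mmp12 and Ly6c2 (636 cells, 62.9% of them from PD+MP) at 662 CPM (95% Poisson interval 639 to 686), against 22.9 CPM (20.3 to 25.8) in the cluster led by Fcrls. In PD+MP alone the values of these clusters were 936 and 13.2 CPM. Poisson intervals here and below cover counting error only.

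Neutrophil-like cells were the main carriers, per UMI, of Mmp9 and Mmp8, enzymes known from neutrophil granules. In BP replicate 1, BP replicate 2 and MP, Mmp9 (gelatinase B) was 548, 204 and 310 CPM and Mmp8 (neutrophil collagenase) 145, 138 and 147 CPM. In the other classes with at least 20 cells Mmp8 did not exceed 12.4 CPM, and Mmp9 not 14.1 CPM. The neutrophil-like cells were few (116, 22 and 24) and shallow (median 1889.5 UMIs) and also held 1520 to 3560 CPM of the SyS markers and 1400 to 2400 CPM of the macrophage markers, so their lower values, such as 33.8 CPM of Mmp13 or 90.1 CPM of Adamts18 in 1 tumor each, are not read as their own.

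The fibroblast-like cells of PD+MP (121 cells of 1 tumor, no replicate) had higher Mmp and Timp sums than any other class there, at 1740 and 2380 CPM. Their Adamts sum was 1370 CPM, below that of the endothelial-like cells of PD+MP. The endothelial-like mean over tumors was 1760 ± 246 CPM. Timp2 reached 1060 CPM, Timp3 999, Mmp2 (gelatinase A) 737, Mmp14 469, Adamts5 326, Timp1 321, Adamts2 287 and Mmp3 (stromelysin 1) 245 CPM. Mmp23 stood at 126 CPM, Adamts6 at 109, Adamts15 at 63.9, Mmp19 at 60.3, Adamts17 at 46.1, Adamts3 at 26.6 and Adamts19 at 25.7 CPM. Mmp3 was nearly restricted to these cells, since its next highest value in any class and tumor was 6.98 CPM, in pericyte-like cells of BP replicate 1. Mast-like cells held the aggrecanase Adamts5 at 408 CPM in MP and 239 CPM in MP+BP, next to 6.86 to 26.2 CPM in endothelial-like and 0.540 to 2.91 CPM in SyS-like cells. Mmp25, a membrane-anchored protease known from leukocytes, was 49.1, 49.3, 29.6, 0 and 84.5 CPM in T and NK-like cells, and Adamts14 31.2, 0, 7.40, 0 and 4.23 CPM. These are small sums of 34 to 78 cells a tumor.

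SyS-like cells had few members of their own. Adamts6 was highest of the 4 classes in SyS-like cells in each tumor, at 74.2, 54.8, 46.3, 75.6 and 40.4 CPM, against at most 27.3 CPM in the other 3 classes, while T and NK-like cells held 19.7 to 95 CPM. Adamts18 was at 30.2, 26.0, 7.62, 4.41 and 11.7 CPM, with at most 2.84 CPM in the other 3 classes. Mmp16, a membrane-type protease, stood at 28.0, 25.3, 30.3, 54.5 and 17.6 CPM. These values exceeded those of every other of the 4 classes except in PD+MP, where 39 pericyte-like cells held 19.5 CPM. Mast-like cells, present in 2 tumors with at least 20 cells, held 6.05 and 53.3 CPM of Mmp16. The leading Mmp of SyS-like cells was Mmp14, the membrane enzyme that activates pro-Mmp2, with 84.9, 85.0, 131, 219 and 185 CPM and 38.4% to 80.2% of their Mmp UMIs. Its level in the other 3 classes, between 103 and 222 CPM, overlapped these values. Adamts10 at 13.8 to 19.6 CPM and Adamts17 at 10.8 to 21.3 CPM were also seen in SyS-like cells of every tumor.

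To test the class of origin, the SyS-like sum of each tumor was compared with the sum of another class of the same tumor by the quasi-likelihood test of edgeR, with tumor as a block and p adjusted by the Benjamini-Hochberg method over all genes tested. Fold changes are log2 of SyS-like over the other class ± SE. A gene entered if either class held enough UMIs, so most genes that entered were high in 1 of the classes, and the counts below describe the genes tested and not all 45.

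Against pericyte-like cells, 5 of 35 genes tested were higher in SyS-like cells and 19 were lower, or 14.3% and 54.3%; over all 19834 genes tested these shares were 19.9% and 14.7%. The median fold change was -1.23 over the genes tested and 0.20 over all genes. The largest decreases in SyS-like cells were those of Adamts4 (-7.91 ± 0.29, edgeR adjusted p = 4.98e-10), Adamts2 (-6.35 ± 0.47, adjusted p = 4.57e-07) and Timp3 (-4.67 ± 0.32, adjusted p = 1.74e-07). Adamts12 (-4.10 ± 0.30), Adamts9 (-3.90 ± 0.30), Timp1 (-3.83 ± 0.39), Adamts5 (-3.43 ± 0.57), Adamts1 (-3.04 ± 0.28) and Timp2 (-2.10 ± 0.18) were lower as well, each with an edgeR adjusted p of at most 0.000443. Mmp28, Mmp13, Mmp11, Mmp17, Mmp19, Adamts3, Adamts7, Adamts8, Adamts16 and Adamts17 made up the rest of the lower genes, with fold changes from -4.37 (Mmp13) to -0.93 (Adamts17). The 5 higher genes were Adamts18, Adamts13, Adamts6, Mmp16 and Mmp25. Adamts6 was higher by 2.98 ± 0.39 (edgeR adjusted p = 5.82e-05) and Mmp16 by 1.71 ± 0.34 (edgeR adjusted p = 0.00156). Pericyte-like cells had only 3 UMIs of Adamts18 and 1 of Adamts13, which gives ratios of the pooled levels of 30.6 (95% counting interval 10.5 to 148) and 7.34 (1.31 to 290). Neither Mmp14 (-0.47 ± 0.19, edgeR adjusted p = 0.0667) nor Mmp2 (-1.46 ± 0.55, adjusted p = 0.0557) passed, though both were called lower under some alternatives given below. Leaving out 1 tumor ended 6 of these calls. That of Mmp25 ended for every tumor but BP replicate 1 (highest edgeR adjusted p 0.277, without MP), and that of Mmp17 likewise (0.119, without PD+MP). The Adamts3 call ended without BP replicate 2, MP or PD+MP (0.202, without MP), and that of Adamts13 without BP replicate 1 or MP (0.148, without MP). MP held the only pericyte-like UMI of Adamts13, so no fold change could be measured without that tumor. The Adamts16 call ended without MP (0.106, with -2.57 in place of -3.80) and that of Mmp19 without BP replicate 1 (0.142).

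Against endothelial-like cells, 10 of 36 genes were higher in SyS-like cells (27.8%) and 14 were lower (38.9%), where 30.4% and 22.1% of 20071 genes were called. The median was -0.30 over the genes tested and 0.20 over all genes. Adamts4 (-6.94 ± 0.24, edgeR adjusted p = 1.86e-08), Mmp28 (-5.40 ± 0.41, adjusted p = 2.76e-06), Adamts9 (-4.81 ± 0.22, adjusted p = 1.04e-07), Timp3 (-4.19 ± 0.32, adjusted p = 2.46e-06) and Adamts1 (-3.53 ± 0.22, adjusted p = 6.12e-07) were lower. Adamts5 (-3.92 ± 0.31), Adamts7 (-2.72 ± 0.44), Adamts2 (-2.39 ± 0.47), Adamts14 (-1.99 ± 0.33), Mmp15 (-1.97 ± 0.40) and Timp1 (-1.698 ± 0.445) followed, with edgeR adjusted p of at most 0.00915. Mmp12 (-3.87 ± 1.10), Mmp19 (-1.33 ± 0.45) and Adamts12 (-0.74 ± 0.24) complete the lower genes. Endothelial-like cells also held pericyte markers, as given above, and their part in the Adamts2 and Adamts12 calls was not tested. Higher in SyS-like cells were Mmp16 (4.99 ± 0.40, adjusted p = 3.76e-06), Adamts18 (3.27 ± 0.57), Mmp23 (3.12 ± 0.36), Mmp9 (3.09 ± 0.64), Adamts15 (2.70 ± 0.57), Adamts6 (2.40 ± 0.18), Mmp2 (2.34 ± 0.62), Mmp11 (2.12 ± 0.41) and Adamts17 (1.13 ± 0.23), with edgeR adjusted p of at most 0.00978. The tenth was Adamts20, with 2 endothelial-like UMIs and a ratio of 11.7 (3.22 to 96.9). Timp2 (0.40 ± 0.20, edgeR adjusted p = 0.121) and Mmp14 (-0.38 ± 0.34, adjusted p = 0.382) were not called. The Mmp12 call rested on 1 library, BP replicate 1, whose endothelial-like cells held 20 CPM when no other tumor exceeded 0.702 CPM; without it the fold change was -1.92 (edgeR adjusted p = 0.174). The macrophage markers, 10 of 10 of them detected, summed to 85.6 CPM in those cells and to 264 CPM in the endothelial-like cells of PD+MP, where Mmp12 had no UMI. Calls also ended for Mmp19 without BP replicate 1, MP or PD+MP (highest adjusted p 0.136), for Adamts12 without MP or MP+BP (0.0744) and for Mmp2 without MP+BP (0.0541).

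Against macrophage-like cells the direction turned: 17 of 37 genes were higher in SyS-like cells (45.9%) and 6 were lower (16.2%), beside 35.2% and 23.1% of 20122 genes. The median was 1.08 over the genes tested (1.04 with Timp4 at its bound) and 0.34 over all genes. The 6 lower genes were Mmp12 (-9.23 ± 0.40, edgeR adjusted p = 5.1e-10), Mmp8 (-7.99 ± 0.81, adjusted p = 1.77e-06), Mmp27, Mmp13 (-7.44 ± 0.29, adjusted p = 1.92e-10), Mmp19 (-5.22 ± 0.36, adjusted p = 4.79e-08) and Timp2 (-3.55 ± 0.22, adjusted p = 1.63e-08). Mmp27 had 57 UMIs in macrophage-like and 3 in SyS-like cells, a ratio of 369 (120 to 1840). Timp3 (3.74 ± 0.25), Adamts1 (3.62 ± 0.26), Adamts9 (3.61 ± 0.27), Adamts12 (4.21 ± 0.41), Adamts18 (5.21 ± 0.41) and Mmp16 (5.31 ± 0.33) were higher in SyS-like cells, with edgeR adjusted p of at most 1.38e-06. Mmp15, Mmp23, Mmp11, Mmp17, Adamts17, Adamts6, Adamts10, Adamts3, Adamts2, Adamts8 and Timp4 were higher too, those with more than 3 macrophage-like UMIs by 0.89 (Adamts10) to 3.45 (Mmp23). Macrophage-like cells had no UMI of Timp4, so its level was at least 2.04-fold higher in SyS-like cells (floor of 3 counts over the class), 2 of Adamts2, a ratio of 14.9 (4.12 to 124), and 1 of Adamts8, a ratio of 14.1 (2.52 to 561). The Timp4 call ended without any single tumor (adjusted p 0.0573 to 0.0979), that of Adamts3 without BP replicate 1, BP replicate 2 or MP+BP (highest 0.0889), that of Adamts8 without BP replicate 1, BP replicate 2 or PD+MP (highest 0.0741) and that of Adamts2 without BP replicate 1 (0.0662). Mmp9 (-0.57 ± 0.85, edgeR adjusted p = 0.586), Mmp2 (-0.52 ± 0.55, adjusted p = 0.438), Mmp14 (-0.49 ± 0.23, adjusted p = 0.0829) and Timp1 (0.57 ± 0.76, adjusted p = 0.533) were not called. Of these, Mmp14 was called under some alternatives given below.

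**Figure D2:**
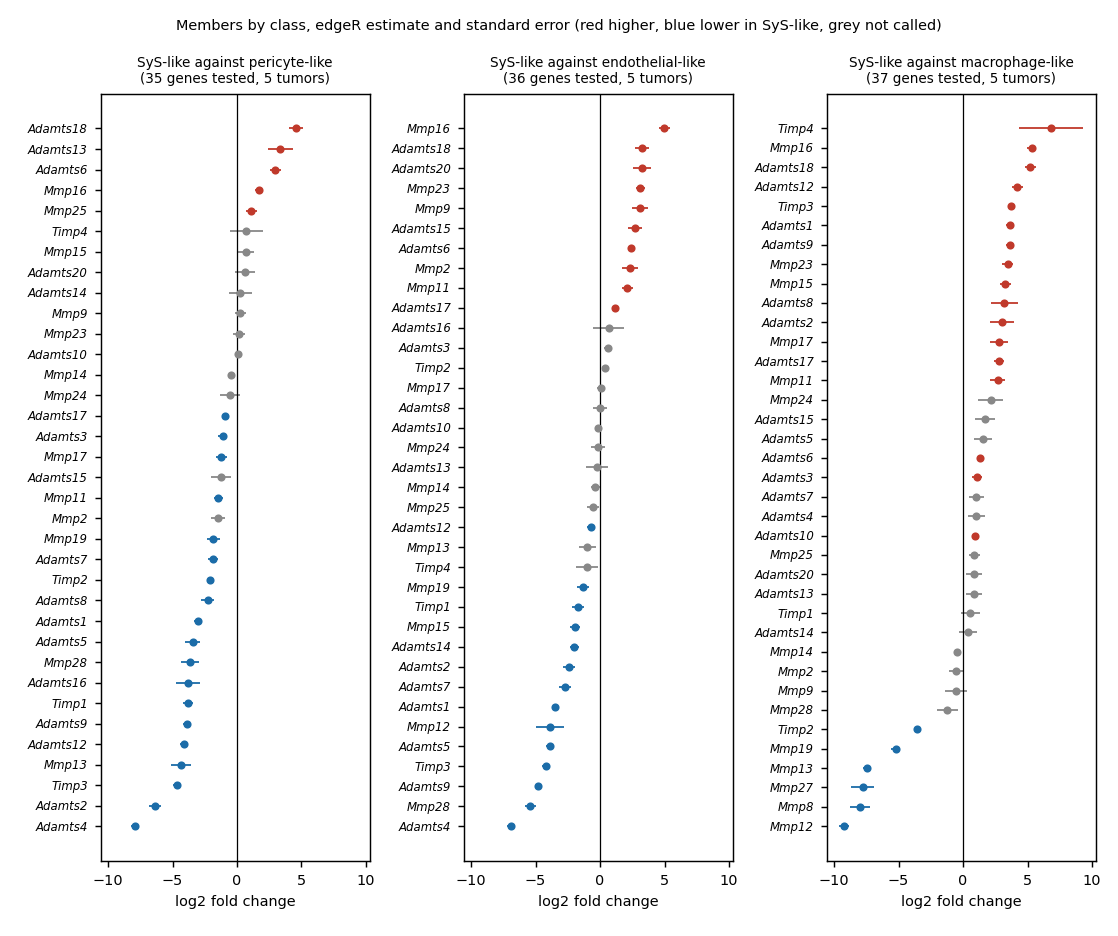
Log2 fold change of SyS-like cells against pericyte-like, endothelial-like and macrophage-like cells (points, with edgeR standard errors as bars) for the genes tested in each comparison over 5 tumors, red where called higher, blue where called lower and grey where not called. Adamts4 lies at the bottom of both vascular panels and Mmp12 at the bottom of the macrophage panel, and Mmp16 and Adamts18 are red in all 3.

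The proteins that act beside these enzymes were looked up in lists of related genes, whose members entered the same tests; A2m had too few UMIs in all 3 comparisons and Acan in that with macrophage-like cells. Their counts are to be read against all genes tested, of which 19.9%, 30.4% and 35.2% were higher and 14.7%, 22.1% and 23.1% lower in SyS-like than in pericyte-like, endothelial-like and macrophage-like cells; several of the shares below lie near these, and the lists are small. Of 7 ADAM proteases, which shed proteins from the cell surface, 3, 6 and 6 were lower in SyS-like cells in these comparisons, in that order (42.9%, 85.7% and 85.7%), and 0, 0 and 1 were higher; Adam19 was at 0.724 ± 0.272 CPM in SyS-like cells and at 59.4 ± 19.8 in pericyte-like, 71.3 ± 8.25 in endothelial-like and 63.6 ± 27.9 in macrophage-like cells. Of 5 genes for lysosomal cathepsins and their inhibitor cystatin C, 3, 1 and 4 were lower (60%, 20% and 80%) and none higher. The cathepsin gene Ctss was 1440 ± 523 CPM in macrophage-like and 6.35 ± 2.59 CPM in SyS-like cells.

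Of 10 regulators of Mmp activity that were tested, 4, 5 and 6 were higher (40%, 50% and 60%) and 3, 2 and 3 lower (30%, 20% and 30%) in SyS-like cells, and of 6 Adamts-like proteins, which lack the protease domain, 2, 2 and 4 were higher (33.3%, 33.3% and 66.7%) and 1, 2 and 1 lower (16.7%, 33.3% and 16.7%). Lrp1, a receptor that clears Mmps and Timps, was 66.2 ± 13 CPM in SyS-like, 191 ± 28.7 in pericyte-like, 17.8 ± 4.16 in endothelial-like and 244 ± 26.2 in macrophage-like cells. Of 15 matrix substrates (14 against macrophage-like cells), 4, 5 and 10 were higher (26.7%, 33.3% and 71.4%) and 9, 5 and 0 lower (60%, 33.3% and 0%). Col2a1, the collagen of cartilage, was 449 ± 133 CPM in SyS-like cells and at most 42.6 ± 49.5 CPM on average in the other 3 classes, whereas Col4a1 of basement membranes was 85.5 ± 41.4 CPM in SyS-like, 3460 ± 644 in pericyte-like and 3170 ± 622 in endothelial-like cells.

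The histological labels were compared as the biphasic label (both BP tumors and MP+BP) against its absence (MP and PD+MP) and, chosen after seeing the data, as the monophasic label (MP, MP+BP and PD+MP) against both BP tumors. The comparisons share tumors, and the labels MP, MP+BP and PD+MP have 1 tumor each. By the biphasic label, no gene of 20796 was called in SyS-like cells by edgeR at an adjusted p under 0.05, which is 0% of the genes and 0 of the 38 members tested, while 2169 genes and 7 members had an unadjusted p under 0.05. DESeq2 called 3 members higher with the biphasic label, Mmp2, Mmp9 and Adamts5. In macrophage-like cells 0 of 12 members and 0% of 11087 genes were called, with 2 members and 927 genes at an unadjusted p under 0.05. In endothelial-like cells 0 of 21 members and 1 of 12780 genes (0.00782%) were called, with 2 members and 1116 genes under 0.05 unadjusted. In pericyte-like cells 0 of 17 members and 0% of 9541 genes were called, with 0 members and 588 genes under 0.05 unadjusted. DESeq2 called no member in these 3 classes.

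Mmp2 and Mmp9, the gelatinases, varied between the SyS-like cells of the tumors. Mmp2 was 50.6, 58.8 and 71.5 CPM in BP replicate 1, BP replicate 2 and MP+BP, and 11.3 and 3.92 CPM in MP and PD+MP, so the labels did not overlap. The fold change with the biphasic label was 2.89 ± 0.50 (log2 ± SE, edgeR adjusted p = 0.435). Mmp9 was 9.44, 13.7 and 3.93 CPM against 0.554 and 1.08 CPM, a fold change of 3.37 ± 0.71 (edgeR adjusted p = 0.443). Adamts5 was 2.91, 2.43 and 1.71 CPM against 0.540 and 0.566 CPM (1.98 ± 0.44, edgeR adjusted p = 0.443), and Mmp15 14.3, 14.9 and 10.2 CPM against 1.86 and 7.93 CPM (1.31 ± 0.64, edgeR adjusted p = 0.5). The fibroblast marker list put the tumors in the same order as Mmp2: its 8 markers, all detected, summed to 173, 237, 136, 385 and 75.0 CPM in the SyS-like cells. Most of that sum was Col3a1 (17.3 to 221 CPM) and Pdgfra (27.6 to 102 CPM), while Dpt, Clec3b, Pi16 and Mfap5 stayed under 1 CPM in every tumor and Dpt had no UMI in either BP tumor; the part of such cells in the Mmp2 level was not tested. Without the MP tumor, which leaves PD+MP alone on its side and assumes that it varies as the others do, edgeR called Mmp2 (3.81 ± 0.34, adjusted p = 0.0230), Mmp25 (3.51 ± 0.43, adjusted p = 0.0355) and Adamts12 (1.82 ± 0.32, adjusted p = 0.0479) higher and Timp1 (-2.73 ± 0.33, adjusted p = 0.0345) lower with the biphasic label.

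In all, 10 of 38 members (26.3%) were higher in each tumor with the biphasic label than in each without it, beside 18.5% of all genes tested, and 3 (7.89%) were lower in each, beside 10.1%. The 10 were Mmp2, Mmp9, Mmp15, Mmp17, Mmp21, Adamts2, Adamts3, Adamts5, Adamts6 and Adamts9, and the 3 were Mmp11, Adamts10 and Adamts20. The gap was small for several of them: Mmp17 was at least 2.54 CPM with the label and at most 2.51 CPM without it, and Adamts9 at least 36.2 and at most 35.4 CPM.

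By the monophasic label, 0 of 38 members and 0% of 20796 genes were called by edgeR in SyS-like cells, with 4 members and 1970 genes at an unadjusted p under 0.05. Those 4 were Mmp14, Mmp9, Adamts18 and Adamts5. Mmp14 was 131, 219 and 185 CPM in MP, MP+BP and PD+MP and 84.9 and 85.0 CPM in the BP tumors, so the groups did not overlap (1.11 ± 0.24, edgeR adjusted p = 0.419). Adamts18 went the other way, with 7.62, 4.41 and 11.7 CPM against 30.2 and 26.0 CPM (-1.76 ± 0.45, edgeR adjusted p = 0.457), as did Mmp9 (-2.65 ± 0.81, edgeR adjusted p = 0.479). DESeq2 called Mmp14 higher and Adamts18 and Mmp9 lower with the monophasic label. In all, 3 of 38 members (7.89%) were higher in each tumor with this label than in both BP tumors, beside 14.5% of all genes tested, and 6 (15.8%) were lower in each, beside 17.6%. The 3 were Mmp11, Mmp14 and Adamts10, and the 6 were Mmp9, Mmp15, Timp3, Adamts5, Adamts12 and Adamts18. In macrophage-like cells 0 of 12 members and 0% of 11087 genes were called, with 0 members and 476 genes under 0.05 unadjusted. In endothelial-like cells 0 of 21 members and 86 of 12780 genes (0.673%) were called, with 4 members and 1369 genes under 0.05 unadjusted. The lowest adjusted p of a member there was that of Adamts7, at 35.1, 27.7 and 24 CPM with the label and 15.2 and 9.48 CPM in the BP tumors (1.32 ± 0.27, edgeR adjusted p = 0.0839), and DESeq2 called it. In pericyte-like cells 0 of 17 members and 8 of 9541 genes (0.0838%) were called, with 1 member and 785 genes under 0.05 unadjusted.

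**Figure D3:**
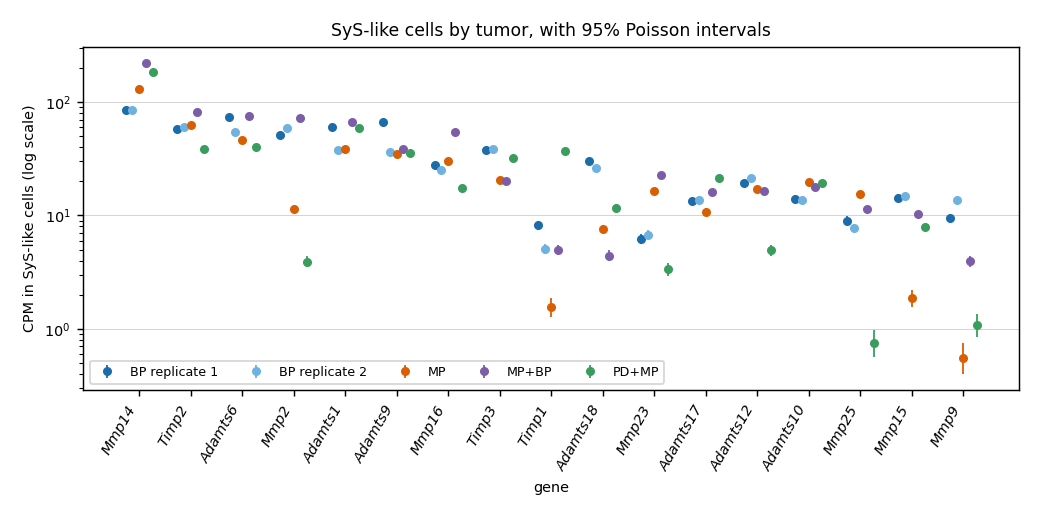
CPM in SyS-like cells (log scale) for the 17 genes that reached 10 CPM there, 1 point per tumor with its 95% Poisson interval, which covers counting error only. Mmp2 and Mmp9 are low in MP and PD+MP, Timp1 is highest in PD+MP (36.6 CPM), and Mmp25 is lowest in PD+MP (0.746 CPM).

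The PD+MP tumor differed from the other 4 in several genes of the SyS-like cells, as a comparison of single tumors with no test. Timp1 was 36.6 CPM (95% Poisson interval 35.2 to 38.0) against 1.55 to 8.18 CPM elsewhere. Within the SyS-like clusters led by Cpvl and by Mgp, given below, PD+MP was not the tumor highest in Timp1. Mmp25 was 0.746 CPM against 7.73 to 15.4, and Adamts12 4.92 CPM against 16.5 to 21.2. Adamts13, the enzyme that cuts von Willebrand factor, was 0.0276 CPM against 0.477 to 3.40. This tumor was also the only one with Uty and almost without Xist, and Timp1 lies on chromosome X; sex and label cannot be told apart here. The MP+BP tumor had the highest Mmp sum in SyS-like cells, 406 CPM against 213 to 231 CPM, and the highest Mmp14 (219 CPM), Mmp16 (54.5 CPM), Mmp2 (71.5 CPM) and Mmp23 (22.5 CPM).

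In macrophage-like cells the Mmp sum was 736 CPM in PD+MP and 230 to 313 CPM in the others, and Mmp12 gave most of this gap. Its fold change with the biphasic label was -2.66 ± 1.07 (edgeR adjusted p = 0.590); MP, which is grouped with PD+MP here, lay below BP replicate 1. Macrophage-like cells of BP replicate 1 and PD+MP also held Mmp9, at 11.6 and 14.1 CPM, where MP and MP+BP had no UMI. Timp1 was 37.9 CPM in MP+BP and 0 to 7.04 CPM elsewhere. By the biphasic label, Timp3 (0.74 ± 0.30, edgeR adjusted p = 0.547) and Adamts5 (0.83 ± 0.30, edgeR adjusted p = 0.527) came nearest to a call in endothelial-like cells. By the same label, the smallest edgeR adjusted p of a member in pericyte-like cells was 0.844.

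**Figure D4:**
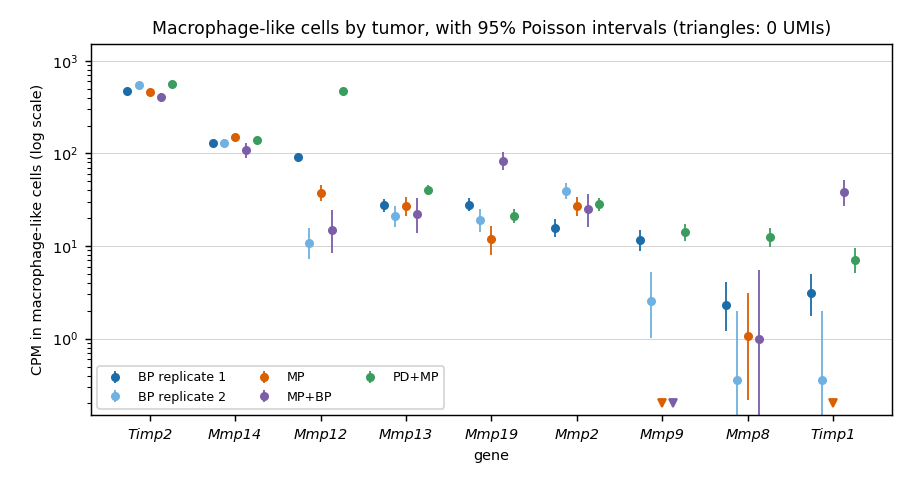
CPM in macrophage-like cells (log scale) of 9 genes, 1 point per tumor with its 95% Poisson interval, and triangles for tumors without a UMI. Mmp12 spans from 10.8 to 468 CPM, while Timp2 (411 to 566 CPM), Mmp14 (108 to 149 CPM) and Mmp13 (21.0 to 40.1 CPM) lie close together.

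The 16 SyS-like clusters showed where within the SyS-like cells the genes lay. These values are descriptions, since most clusters are mainly of 1 tumor. Mmp14 was spread over all 16, from 70.7 CPM in the cluster led by Meioc to 268 CPM in the cluster led by Cpvl. Mmp9 was concentrated: 109 CPM in the cluster led by Sst (391 cells), where it was among the 10 leading genes, 28.6 CPM in the one led by Mgp (461 cells) and 27.4 CPM in the one led by Cpvl, with a median of 1.54 CPM over the clusters. The Mmp9 of the Sst-led cluster came from BP replicate 2 (146 CPM), since its cells in MP+BP had 1.82 CPM. Mmp2 was highest in the Sst-led (121 CPM) and Cpvl-led clusters (100 CPM), and in the Cpvl-led cluster it reached 99.2, 184, 24.4, 86.5 and 139 CPM in the 5 tumors, so that PD+MP was not low there; 116 cells of PD+MP belonged to it. Within the same cluster Mmp9 had 58.0, 114, 6.97, 8.99 and 0 CPM.

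The Mgp-led and Sst-led clusters were the highest pair of the 16 for Mmp9, as above, Mmp13 (0.759 and 0.539 CPM), Adamts16 (1.77 and 2.69 CPM), Adamts17 (90.6 and 65.2 CPM), Timp2 (140 and 135 CPM), Mmp23 (70.1 and 39.1 CPM), Adamts9 (80 and 77.6 CPM) and Adamts5 (10.9 and 15.6 CPM). The Mmp13 values rest on few UMIs. How many of all genes had this pair of clusters highest was not counted. Adamts1 was at 146 CPM, Mmp16 at 84.1 CPM and Adamts3 at 15.7 CPM in the Mgp-led cluster. Adamts18 had the reverse order, with 2.03 CPM in the Mgp-led cluster and 34.9 CPM in that led by Hpse2, which came almost wholly from both BP tumors. Timp1 was highest in the Gap43-led cluster (63.1 CPM, 1329 of its 1332 cells from PD+MP), followed by the Mgp-led cluster (46.1 CPM). In the Mgp-led cluster Timp1 was 36.5, 118, 26.8 and 64.0 CPM in BP replicate 1, BP replicate 2, MP+BP and PD+MP. In the Cpvl-led cluster it was 40.7, 38.7, 4.65, 6.16 and 39.5 CPM in the 5 tumors. The Rab25-led cluster, with the epithelial genes Cdh1, Cldn6 and Cldn7 among its leading genes, held 115 CPM of Mmp14, 33.0 CPM of Mmp2, 1.09 CPM of Mmp9 and 19.9 CPM of Timp1.

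**Figure D5:**
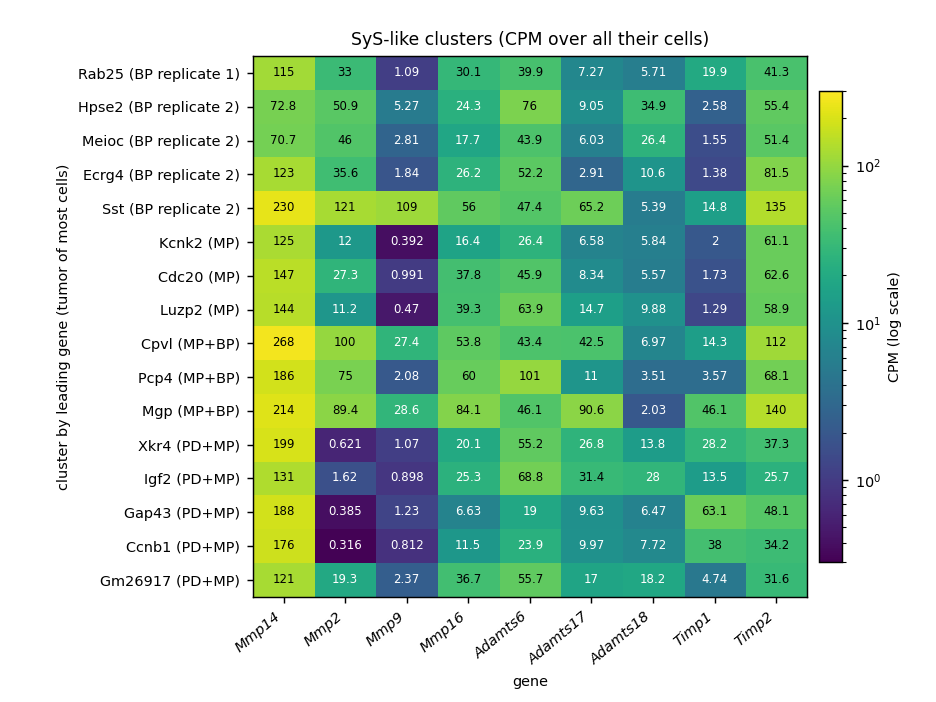
CPM of 9 genes (color, log scale, printed in each cell) in the 16 SyS-like clusters, each named by its leading gene and the tumor of most of its cells. Mmp9 stands out in the Sst-led, Mgp-led and Cpvl-led clusters, Adamts18 in the Hpse2-led, Igf2-led and Meioc-led clusters, and Timp1 in the Gap43-led and Mgp-led clusters.

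The 15 genes that stayed under 20 CPM everywhere were Mmp7, Mmp10, Mmp11, Mmp17, Mmp20, Mmp21, Mmp24, Mmp27, Mmp28, Mmp1b, Timp4, Adamts8, Adamts13, Adamts16 and Adamts20. Mmp7 (matrilysin, known from epithelia) had 1 UMI, Mmp1b 4 and Mmp20 (enamelysin of teeth) 5 UMIs in all kept cells. Mmp10 was not detected in any SyS-like cell, which allows a level of up to 0.00871 CPM (3 counts over the class), while macrophage-like cells held 14 UMIs. Mmp11, Mmp17 and Adamts8 had their highest mean of the 4 classes in pericyte-like cells (11.9, 8.07 and 3.42 CPM), and Mmp28 had it in endothelial-like cells (8.94 CPM). Mmp12 and Mmp1b overlap on opposite strands, as do Timp1 with Syn1, Timp3 with Syn3 and Timp4 with Syn2; reads of a 3′ library keep their strand.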

How the data were processed

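The authors deposited raw UMI counts per gene and cell for each tumor, made with the count step of Cell Ranger 7.2.0 (file headers) from 10x 3′ v3.1 libraries of dissociated tumors and, per the submitters' notes, on mm10; the release of the reference and the counting of introns were not given in the sources used here, and no correction for free RNA was made. The matrices hold called cells only. From these counts, cells with fewer than 750 genes (8488), with over 25% mitochondrial UMIs (666) or predicted to be doublets (2957) were removed. The remaining cells were clustered with scanpy 1.11.5 and leidenalg 0.10.2 on 3000 features that held no Mmp, Adamts or Timp gene, giving 31 clusters at resolution 1. A cluster took the name of a class from at least 3 detected markers and stayed unnamed where its leading genes went against the name or its cells were shallow. UMIs were summed per tumor and class with at least 20 cells, and sums were tested two-sided with the quasi-likelihood test of edgeR 4.0.16 (TMM, filterByExpr, tumor as a block between classes, Benjamini-Hochberg over all genes tested, threshold 0.05), after the scripts were tested on simulated data. Adjusted p are from edgeR unless DESeq2 1.42.0 is named. The tumors are separate samples in the labels, and p-values measure the spread between them. Poisson intervals are exact at 95%, and a floor is 3 counts.

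All Timp genes, all genes past the threshold and all that reached 20 CPM were named. The genes and lists were chosen with earlier results of these data known. Alternatives covered scaling, tool, filters, doublets, thinning, cluster resolution, the tumor block and leaving out each tumor; adding the unnamed clusters to the class of most of their markers and the comparison by the monophasic label were chosen after seeing the data. Levels come from cell sums, so free RNA in droplets adds to low values of every class. Promoter windows are from RefSeq; positions of genes are from GENCODE vM21. The list of genes of plasminogen activation is not reported here as a whole.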

Additional observations from a re-analysis of the deposited data

Results flagged for a closer look

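A pair of a gene and a class was looked at if at least 1 tumor reached 20 CPM. Over 48 such pairs, 10 had 1 tumor whose gap to the nearest other tumor exceeded 0.71 of the whole range of the 5 tumors. Some pairs, such as Mmp12 in endothelial-like cells, entered only through the outlying tumor, so no chance rate is set beside this count. The tumors carry different labels and are not replicates of 1 group. In SyS-like cells the flagged pairs were Adamts9 at 66.1 CPM in BP replicate 1 (34.7 to 38.2 in the others), Adamts12 at 4.92 CPM in PD+MP (16.5 to 21.2) and Timp1 at 36.6 CPM in PD+MP (1.55 to 8.18). In pericyte-like cells they were Timp3 at 296 CPM (690 to 822) and Adamts6 at 27.3 CPM (1.83 to 7.78), both in PD+MP, where the class held 39 cells. In endothelial-like cells they were Mmp12 at 20 CPM in BP replicate 1 (0 to 0.702) and Timp1 at 30.9 CPM in PD+MP (14.1 to 18.1). In macrophage-like cells they were Mmp12 at 468 CPM in PD+MP (10.8 to 91.5), and Mmp19 at 83.8 CPM (11.8 to 28) and Timp1 at 37.9 CPM (0 to 7.04) in MP+BP. PD+MP gave 6 of the 10 and was also the tumor with Uty and almost no Xist.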

How the results depend on the processing

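No called gene changed sign under any alternative, and every call lower than macrophage-like cells was kept by each alternative that tested it. Of the other calls, 2 of 5 higher and 15 of 19 lower genes against pericyte-like cells, 8 of 10 and 10 of 14 against endothelial-like cells and 13 of 17 higher genes against macrophage-like cells were kept under each. Higher genes against pericyte-like cells numbered 3 with DESeq2, without the tumor block, with doublets kept and with thinned sums, and 2 with fibroblast-like cells added to the pericyte-like ones, where the adjusted p of Adamts6 was 0.0775 (log2 fold change 1.96). Requiring at least 10 UMIs in every sum left 11, 11 and 6 of the 45 genes to test and gave 0 higher and 9 lower against pericyte-like, 0 and 8 against endothelial-like and 1 and 3 against macrophage-like cells. Without the tumor block, the calls of Adamts15 (edgeR adjusted p 0.18), Timp1 (0.303) and Adamts12 against endothelial-like cells ended, and Mmp12 did not enter the test. The cause was not tested. Leaving out each tumor gave 4 higher and 16 to 20 lower against pericyte-like, 9 to 10 and 12 to 14 against endothelial-like, and 14 to 17 and 6 to 7 against macrophage-like cells. Some genes gained a call. Against pericyte-like cells, Mmp14 was called lower with relative log expression scaling, DESeq2, at least 1500 genes per cell and thinned sums. It was also called lower without MP+BP and with fibroblast-like cells added. Mmp2 was called lower there with DESeq2, at least 1500 genes per cell, thinned sums and without MP+BP. Against macrophage-like cells, Mmp14 was called with thinned sums, resolution 0.5 or the unnamed clusters, and without MP+BP or PD+MP. Scaling to total counts alone moved the median over all genes from 0.20, 0.20 and 0.34 to 0.42, 0.41 and 0.83. Adding the unnamed clusters gave 4 higher and 19 lower, 10 and 14, and 18 and 8 genes.

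By the biphasic label, DESeq2 called 3 genes higher in SyS-like cells, Mmp2 (adjusted p = 3.75e-06), Mmp9 (4.02e-05) and Adamts5 (0.000913). Leaving out each tumor gave 0 to 3 higher and 0 to 1 lower genes in SyS-like cells and 0 higher and 0 to 2 lower (Mmp8 and Mmp27, without MP) in macrophage-like cells. Without a filter on low counts, edgeR called Mmp19 higher and 3 genes lower (Mmp8, Mmp12 and Mmp27) in macrophage-like cells, or 1 and 3, and 2 higher (Mmp12 and Timp3) in endothelial-like cells; the cause was not tested. By the monophasic label, DESeq2 called 1 gene higher (Mmp14, adjusted p = 0.0139) and 2 lower (Adamts18, 0.0316, and Mmp9, just under the threshold) in SyS-like cells and 1 higher in endothelial-like cells (Adamts7, 0.0342). Without a filter on low counts, edgeR called 2 higher in macrophage-like cells (Mmp12 and Timp1) and 3 higher (Adamts2, Adamts7 and Timp2) and 2 lower (Mmp12 and Mmp14) in endothelial-like cells; the cause was not tested. Leaving out each tumor gave 0 higher and 0 lower genes in every class except 0 to 1 lower in endothelial-like cells (Mmp12, without BP replicate 2). The Mmp12 calls in endothelial-like cells rest on 1 library, BP replicate 1. Mmp12 was at 20 CPM in those cells and at most 0.702 CPM in the endothelial-like cells of any other tumor. Every label comparison has 3 tumors against 2. These label comparisons were not paired, because the labels link no tumor on 1 side to a tumor on the other.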

Other observations

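The macrophage-like cells fell into clusters with different protease levels. The cluster led by Ccl8, with Cd163 and Lyve1 among its leading genes (160 cells), held Timp2 at 699 CPM (95% Poisson interval 648 to 753) and Mmp19 at 60.8 CPM (46.5 to 78.1), and had no UMI of Mmp12, which allows up to 3.68 CPM by the upper bound of the interval. The Spp1-led cluster, which was rich in Mmp12, also held Mmp9 at 25.5 CPM (21.2 to 30.5), Mmp8 at 18.1 CPM (14.5 to 22.4), Timp1 at 17.3 CPM (13.7 to 21.5) and Mmp27 at 8.85 CPM (6.38 to 12). Timp1 there was 209 CPM in MP+BP, against 10.3, 0 and 10.5 CPM in BP replicate 1, MP and PD+MP. Mmp2 was at 36.9 CPM (33.6 to 40.5) in the Fcrls-led cluster. The intervals cover counting error only, and no test was run between clusters.

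An unnamed cluster of 1223 cells with mostly macrophage markers, led by H2-Aa, H2-Eb1 and Cd74 of antigen presentation, carried the same kinds of transcript. Timp2 stood at 345 CPM (331 to 361), Mmp14 at 119 CPM (110 to 128), Mmp12 at 38 CPM (33.2 to 43.3), Mmp13 at 26.3 CPM (22.4 to 30.8) and Mmp19 at 25.7 CPM (21.8 to 30). Over the 5 tumors, Mmp12 in these cells was 29.1, 26.9, 75.6, 25.4 and 105 CPM. The other unnamed cluster with few cells (134), led by Igkc and other immunoglobulin genes, held Adamts6 at 138 CPM (105 to 179).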
